A study of Homo sapiens with 6 samples.

Results

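Genes of mitosis, the centrosome and the cell cycle were compared between HMC3 cells given C1s-CM and HMC3 cells given control CM. Their products duplicate the genome, build the spindle and pull the chromosomes apart: cyclins switch on cyclin-dependent kinases, MCM proteins form the helicase that opens replication origins, centrosomes and kinesin motors organise spindle microtubules, and kinetochores tie chromosomes to them and hold back anaphase until all are attached. Many of these genes are transcribed in waves across the cell cycle, and in bulk RNA fewer cells in a phase and less RNA per cell cannot be told apart. Members were taken by gene symbol, as CEP, KIF, CDK, MCM and PLK followed by a digit, the CENP, AURK and BUB genes, the A, B, D and E cyclins, and TOP2A. The table held 75 such genes of 5117, all protein-coding. By role they were 25 centrosome and centriole genes, 13 kinetochore and spindle checkpoint genes, 14 kinesins, 14 cyclins and kinases and 5 replication genes. A further 4 genes were matched by symbol only and kept as a class of their own. RefSeq lists 165 protein-coding genes under such symbols, of which 74 had a row, and CENPJ stands there under another name. The other 91, among them AURKA, CCNB1 and CENPA, had no row and were not analysed here.

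HMC3 is an established human microglial cell line, and all cells carried the line's own genotype (WT). C1s-CM (3 libraries) is conditioned medium with C1s, a protease that starts the classical pathway of complement, and control CM (3 libraries titled FLAG) is medium without it. The labels do not say which cells conditioned the medium, for how long it was given, or whether each library is a culture of its own, so the p-values rest on a spread among 3 libraries that may be technical. The counts of the table summed to 14195082 to 14961744 per C1s-CM library and to 12730766 to 13863120 per control CM library. These sums cover a part of each library, since the largest adjusted p in the authors' deposited table was 0.05. Each member had thus been selected for a difference by the authors' test on the same libraries, and the tests below give sizes, errors and alternatives, with no independent evidence of a difference. Most microglial markers had no row, so the label of the cells could not be checked against them. Of 7 fibroblast and pericyte markers 2 had a row, COL1A1 with 51107 to 54027 counts in C1s-CM and 49853 to 54676 in control CM, and PDGFRB with 2206 to 2432 in C1s-CM and 2012 to 2243 in control CM. The macrophage markers CD163, CD209 and CCR2 (3 of 5 with a row) summed to 723 to 814 counts per C1s-CM library and 0 in control CM, and the part of either list in the results below was not tested.

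All 75 members passed an adjusted p of 0.05 (Benjamini-Hochberg) in the quasi-likelihood test of edgeR, 22 higher and 53 lower in C1s-CM. Of all 5116 genes tested 99.4% passed, 50.9% higher and 48.5% lower, so the number of members past the threshold is that of the table. All 75 also passed with DESeq2 (all genes 96.4%), with the replicate number as a block (98.8%), and without each library in turn (98.3, 98.3, 97.7, 98.7, 98.0 and 97.8%). The median log2 fold change (C1s-CM over control CM) was -0.43 over the members and 0.080 over all genes. The CPM of C1s-CM and control CM libraries had no overlap in any of the 75 members, and in 97.2% of all genes. Log2 fold changes ran from -0.86 to 0.41, and 0 members reached 2-fold. By class the median was -0.66 for kinesins, -0.49 for centrosome genes, -0.39 for kinetochore genes, -0.019 for cyclins and kinases, 0.17 for replication genes and 0.018 for the 4 genes matched by symbol only. Scaling by the total counts of the table in place of TMM shifted the median of all genes by -0.13. Under it 13 members were higher (all genes 26.1%) and 53 lower (49.2%), 66 in all (75.3%), and 9 of the 22 that rose missed the threshold. The sign of all 75 was the same as in the authors' deposited table.

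**Figure D1:**
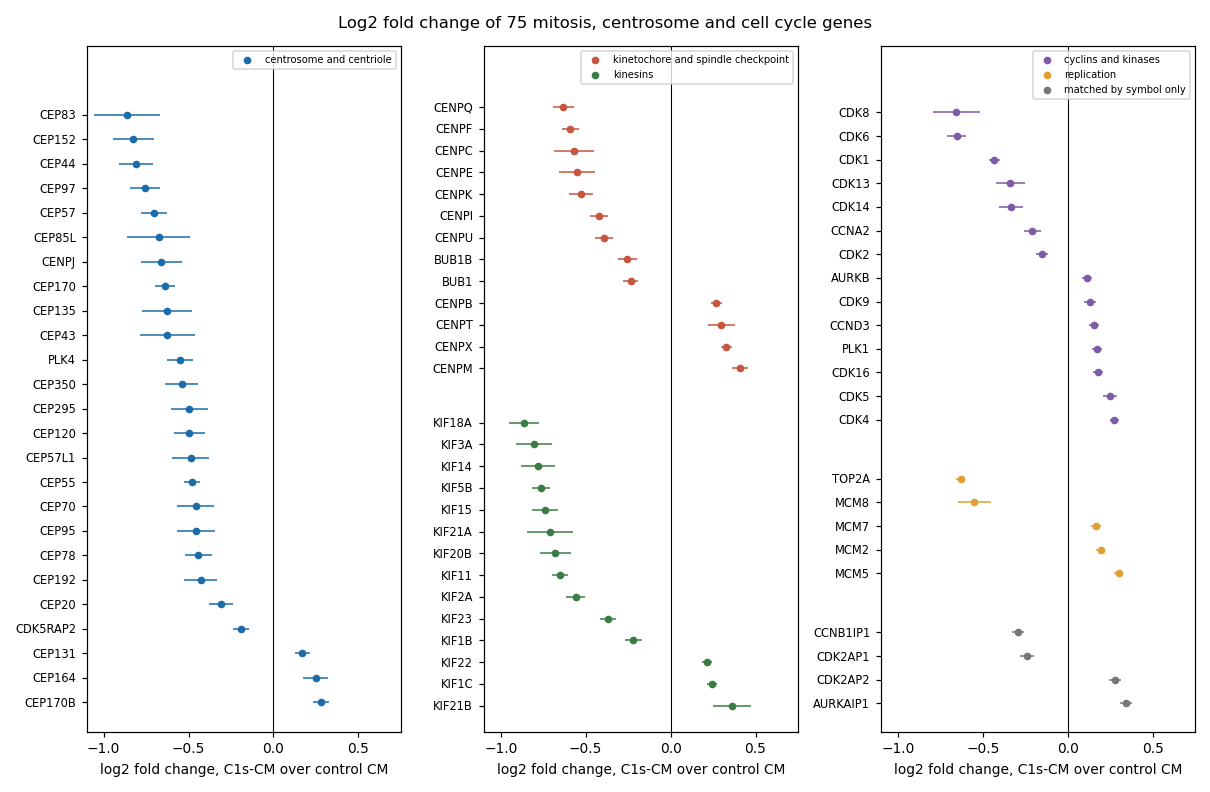
Log2 fold change (C1s-CM over control CM) of each of the 75 genes, by role; points are edgeR estimates and bars their standard errors, from 3 libraries per group. Among centrosome genes 22 of 25 lie left of 0 and 3 right, among kinesins 11 and 3, and among cyclins and kinases 7 and 7; with total-count scaling AURKB lies at -0.013.

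The stretches upstream of 6 members are shown because genes that fell and a gene that rose hold the same elements. They are the 250 bases before the transcription start in RefSeq (GRCh38.p14), 5′ to 3′ on the gene's strand. Capitals mark 3 motifs searched on both strands, which do not overlap in these windows: the cell cycle genes homology region (TTTGAA), known to hold genes silent until G2 and mitosis, the CCAAT box (CCAAT), and E2F sites (TTTGGCGC, TTTCCCGC, TTTCGCGC or TTTGCCGC), known from genes of DNA synthesis. Those that fell are KIF18A (chr11:28108157-28108406, minus strand), KIF11 (chr10:92592880-92593129, plus strand), TOP2A (chr17:40417897-40418146, minus strand) and CDK1 (chr10:60778228-60778477, plus strand), and those that rose are PLK1 (chr16:23678639-23678888, plus strand) and MCM7 (chr7:100101398-100101647, minus strand). These directions are those of the fit with TMM. With total-count scaling PLK1 and MCM7 missed the threshold. With the GC and length offsets described further on, the estimates of PLK1, MCM7 and CDK1 had the opposite sign. The RefSeq start of MCM7 lies 543 bases from the start of the GENCODE transcript used for its GC content.
KIF18A: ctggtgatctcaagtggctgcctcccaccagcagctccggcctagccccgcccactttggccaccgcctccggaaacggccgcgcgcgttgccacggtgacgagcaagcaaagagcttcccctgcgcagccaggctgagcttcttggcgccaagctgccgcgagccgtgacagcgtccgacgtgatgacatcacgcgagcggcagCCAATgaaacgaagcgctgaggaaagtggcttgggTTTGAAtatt
KIF11: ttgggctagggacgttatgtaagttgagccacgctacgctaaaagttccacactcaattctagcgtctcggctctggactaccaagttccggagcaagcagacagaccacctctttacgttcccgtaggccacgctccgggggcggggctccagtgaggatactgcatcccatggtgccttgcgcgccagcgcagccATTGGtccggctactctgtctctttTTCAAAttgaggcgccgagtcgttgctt
TOP2A: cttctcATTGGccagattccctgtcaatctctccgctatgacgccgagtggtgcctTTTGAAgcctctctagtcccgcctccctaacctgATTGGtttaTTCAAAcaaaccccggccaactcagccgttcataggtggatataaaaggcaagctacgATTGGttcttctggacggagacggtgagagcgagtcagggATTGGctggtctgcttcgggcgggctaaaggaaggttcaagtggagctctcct
CDK1: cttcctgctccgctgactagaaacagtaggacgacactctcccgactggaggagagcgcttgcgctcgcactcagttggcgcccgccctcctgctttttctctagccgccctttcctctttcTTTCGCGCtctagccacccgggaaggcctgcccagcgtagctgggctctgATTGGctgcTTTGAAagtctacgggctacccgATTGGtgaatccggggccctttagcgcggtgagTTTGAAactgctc
PLK1: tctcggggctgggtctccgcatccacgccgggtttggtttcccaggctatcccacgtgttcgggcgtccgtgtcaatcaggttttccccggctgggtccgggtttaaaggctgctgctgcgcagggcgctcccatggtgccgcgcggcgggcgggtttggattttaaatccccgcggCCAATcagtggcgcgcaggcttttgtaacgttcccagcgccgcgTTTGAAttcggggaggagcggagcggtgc
MCM7: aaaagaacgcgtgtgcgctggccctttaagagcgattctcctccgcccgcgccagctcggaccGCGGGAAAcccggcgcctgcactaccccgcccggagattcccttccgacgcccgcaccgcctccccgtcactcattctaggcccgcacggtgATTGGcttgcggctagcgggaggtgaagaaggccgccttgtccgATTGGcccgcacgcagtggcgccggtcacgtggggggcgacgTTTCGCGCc

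A RefSeq promoter was matched for 68 of the 75 members. Its start lay farthest from that of the GENCODE transcript used for GC content for CDK14, CEP57L1 and KIF14, at 112901, 34141 and 2028 bases. Some other starts lay more than 250 bases away too, such as those of CDK2AP1 at 889 and CEP97 at 689. All of these windows stayed in the shares below. TTTGAA was in 14 of the 68 promoters (20.6%), against 7.76% of the 4189 genes with a row and a promoter and 13.3% of all 35116 promoter windows. It was in 1 of 18 members that rose, PLK1, and in 13 of 50 that fell, among them 5 kinesins. The shares among all genes that rose or fell were not counted, so whether this split is particular to the members cannot be told. CCAAT was in 54.4% of members, 36.7% of genes with a row and 32% of all windows, and among members in 55.6% of those that rose and 54% of those that fell. An E2F site was in 5.88% of members, 5.28% of genes with a row and 2.79% of all windows. These are matches of letters, given without a test. The median GC content of the 250 bases was 68.2% for members that rose and 64% for members that fell.

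Centrosome and centriole genes were lower in 22 of 25 cases. CEP152, which recruits the kinase PLK4 to centrioles, had 116, 151 and 99 counts in C1s-CM and 187, 227 and 241 in control CM, a log2 fold change of -0.83 ± 0.12 (SE) (adjusted p = 1.48e-06, edgeR). Every C1s-CM count was below every control count, though the C1s-CM libraries spread widely. CEP83, a distal appendage protein needed for cilium formation, fell by 0.86 ± 0.19 on the log2 scale at 27 to 37 counts in C1s-CM and 52 to 71 in control CM. CEP44, a centriole protein, fell by 0.81 ± 0.10, and CEP78 fell by 0.44 ± 0.08. PLK4, the kinase that starts centriole duplication, was lower too. The highest mean level per length over the 6 libraries was that of CEP55, which recruits the membrane scission machinery to the midbody at the end of cell division, with 25.2 CPM per kilobase in C1s-CM and 35.1 in control CM (CPM, counts scaled to a common library size). It fell by 0.48 ± 0.05, and in C1s-CM it was below CEP131, which had 28.4 CPM per kilobase in C1s-CM and 25.3 in control CM. The 17 members of this class that the naming rule left out had log2 fold changes from -0.76 to -0.19.

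The 3 centrosome genes that rose were CEP170B (0.28 ± 0.05), CEP164 (0.25 ± 0.07) and CEP131, a protein of centriolar satellites (0.17 ± 0.04). With total-count scaling CEP164 (0.12) and CEP131 (0.044) missed the threshold, and CEP131 was at -0.10 with the GC and length offsets described further on. CEP164 is a distal appendage protein as CEP83 is, and the estimates of these genes had opposite signs. With offsets neither passed the threshold, CEP164 at 0.079 and CEP83 at -0.38. The GC content of their transcripts was 56.6% for CEP164 and 39.2% for CEP83. CEP164 had 416, 414 and 391 counts in C1s-CM and 324, 333 and 380 in control CM. The nearest counts of its groups were close to each other.

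Kinetochore and spindle checkpoint genes divided into 4 higher and 9 lower. CENPQ, a subunit of the inner kinetochore, fell to 33.7 ± 0.984 CPM in C1s-CM, against 52.2 ± 3.09 in control CM (SD, n = 3 each), a log2 fold change of -0.63 ± 0.06 (adjusted p = 3.50e-09, edgeR). CENPF, a large outer kinetochore protein of G2 and mitosis, fell by 0.59 ± 0.05, and CENPC, which binds the centromeric nucleosome, fell by 0.57 ± 0.12. CENPM, another inner kinetochore subunit, rose to 127 ± 9.18 CPM in C1s-CM, against 95.4 ± 2.80 in control CM (SD, n = 3 each), a log2 fold change of 0.41 ± 0.05 (adjusted p = 3.02e-08, edgeR). This was the highest log2 fold change of the 75 members. CENPX and CENPT, histone-fold subunits of the centromere, rose by 0.33 ± 0.03 and 0.30 ± 0.08 on the log2 scale. Of the 8 members of the constitutive centromere network, the assembly that CENPC, CENPM, CENPQ, CENPT and CENPX belong to, 3 rose and 5 fell. With offsets 0 of these 8 passed the threshold (all genes 25.8%), and their log2 fold changes ran from -0.071 to 0.10. CENPX had the highest level per length of the class, 316 CPM per kilobase in C1s-CM and 252 in control CM. BUB1, a checkpoint kinase, had 1096, 1163 and 1100 counts in C1s-CM and 1304, 1275 and 1410 in control CM, a log2 fold change of -0.24 ± 0.04 that was 0.12 with offsets. The 6 members of this class that the naming rule left out had log2 fold changes from -0.55 to 0.27.

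Kinesins had the lowest median of the 6 classes, with 3 higher and 11 lower. KIF18A, which damps the movements of chromosomes at the spindle equator, had 173, 203 and 173 counts in C1s-CM and 313, 324 and 371 in control CM, a log2 fold change of -0.86 ± 0.09 (adjusted p = 9.20e-09, edgeR). Each C1s-CM library was far below each control library. KIF3A, a motor of transport in cilia, fell by 0.80 ± 0.11 and KIF14, a motor of cytokinesis, fell by 0.78 ± 0.10. KIF11, the motor that pushes spindle poles apart, had 954, 1006 and 906 counts in C1s-CM and 1382, 1609 and 1548 in control CM, a log2 fold change of -0.65 ± 0.05. The 7 mitotic kinesins had a median of -0.68, with 1 higher, KIF22, and 6 lower. KIF22, which binds chromosome arms, rose by 0.21 ± 0.03 and had the highest level per length of the class, 112 CPM per kilobase in C1s-CM and 96.4 in control CM. With offsets KIF22 was at -0.0059. The other kinesins that rose were KIF1C (0.24 ± 0.03) and KIF21B (0.36 ± 0.11), motors of transport along microtubules. KIF21B had 211, 217 and 199 counts in C1s-CM and 180, 141 and 171 in control CM, and missed the threshold with total-count scaling (0.24, adjusted p = 0.0583, edgeR). The 7 members of this class that the naming rule left out had log2 fold changes from -0.76 to -0.22.

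Cyclins and kinases were evenly divided, 7 higher and 7 lower, and 2 higher with total-count scaling. CDK1, the kinase that drives entry into mitosis, had 2773, 2744 and 2768 counts in C1s-CM and 3522, 3796 and 3963 in control CM, a log2 fold change of -0.43 ± 0.03 (adjusted p = 2.71e-11, edgeR). The 3 C1s-CM counts were close together and lay below every control count, while with offsets its log2 fold change was 0.087 (adjusted p = 0.0307, edgeR). CDK8, the kinase of the Mediator complex, fell by 0.66 ± 0.14, and CDK6, a partner of D cyclins, fell by 0.65 ± 0.06. CDK4, which has the same cyclin partners, had 7161, 7427 and 7265 counts in C1s-CM and 5791, 6269 and 6166 in control CM, a log2 fold change of 0.27 ± 0.03 (adjusted p = 5.39e-09, edgeR). CDK5, known for its roles in neurons, rose by 0.25 ± 0.04, and CDK16 rose by 0.18 ± 0.03. AURKB, the kinase of the chromosomal passenger complex, had the highest level per length, 317 CPM per kilobase in C1s-CM and 293 in control CM. Its log2 fold change of 0.11 ± 0.03 was the nearest to 0 of the 75 members, and it was -0.013 with total-count scaling and -0.13 with offsets. With total-count scaling CDK16 (0.052) missed the threshold too, as did CDK9, CCND3 and PLK1, and with offsets CDK16 was at -0.043 and PLK1 at -0.032. The mitotic kinase PLK1, whose promoter is printed above, had 3074, 3323 and 3182 counts in C1s-CM and 2655, 2866 and 3064 in control CM, a log2 fold change of 0.17 ± 0.03. Its groups were apart by a narrow margin in counts. The 7 members of this class that the naming rule left out had log2 fold changes from -0.34 to 0.17.

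Replication genes had 3 higher and 2 lower. MCM5, MCM2 and MCM7 are subunits of the replicative helicase. MCM5 had 7080, 7608 and 6922 counts in C1s-CM and 5669, 5921 and 6123 in control CM, a log2 fold change of 0.30 ± 0.03 (adjusted p = 1.47e-09, edgeR). MCM2 rose by 0.19 ± 0.03 and MCM7 rose by 0.17 ± 0.03, while MCM7 missed the threshold with total-count scaling (0.041). With offsets MCM2 was at -0.0056 and MCM7 at -0.033. MCM7 had the highest level per length of the 75 members, 428 CPM per kilobase in C1s-CM and 382 in control CM. TOP2A, the topoisomerase that untangles sister chromatids, had 5647, 5780 and 5359 counts in C1s-CM and 8086, 8916 and 9246 in control CM, a log2 fold change of -0.63 ± 0.03 (adjusted p = 4.76e-15, edgeR). The gap between its groups was wide. MCM8, a helicase of recombination that is not part of the replicative ring, fell by 0.55 ± 0.10.

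**Figure D2:**
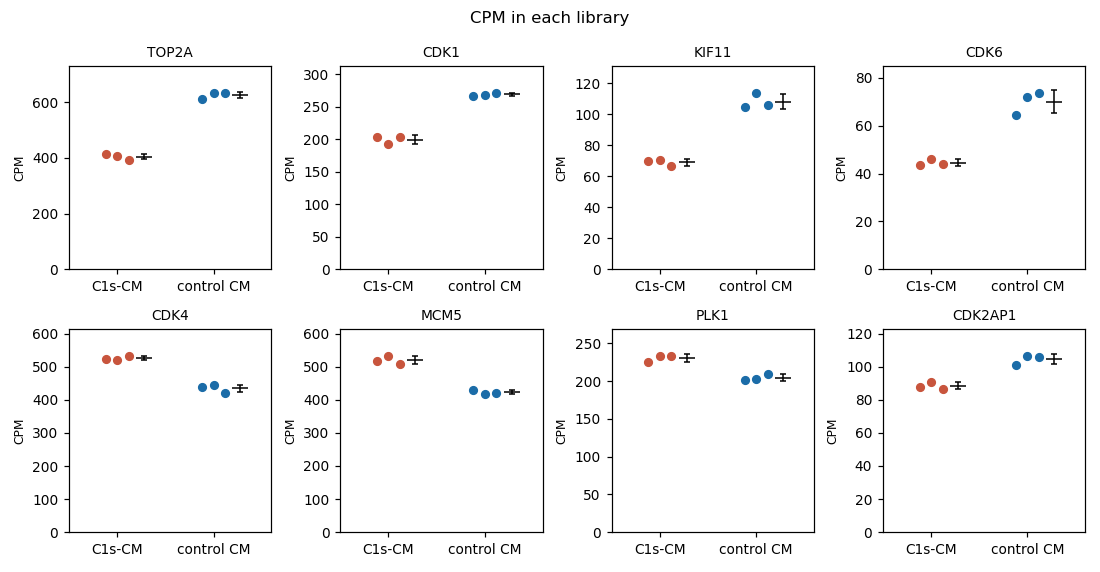
CPM of 8 members in each library (dots), with the mean and SD of the 3 libraries of each group (black); axes start at 0. TOP2A, CDK1, KIF11, CDK6 and CDK2AP1 were lower in all 3 C1s-CM libraries than in any control CM library, and CDK4, MCM5 and PLK1 higher, by 12.6% for PLK1 and 23.0% for MCM5; PLK1 missed the threshold with total-count scaling.

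Among the 4 genes matched by symbol only, AURKAIP1, a protein of the mitochondrial ribosome, rose by 0.34 ± 0.03, and CDK2AP2 rose by 0.28 ± 0.04. CCNB1IP1, a ubiquitin ligase known from meiotic recombination, fell by 0.29 ± 0.04. CDK2AP1, a subunit of a chromatin remodelling complex, had 1199, 1294 and 1181 counts in C1s-CM and 1332, 1506 and 1546 in control CM, a log2 fold change of -0.24 ± 0.04 (adjusted p = 1.35e-05, edgeR). Its groups did not overlap. With offsets CDK2AP2 was at -0.045 and AURKAIP1 at -0.030.

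The sign of the members ran with the GC content of their transcripts, as in the whole table. All 52 members with a GC content below 50% were lower in C1s-CM, and 22 of 23 at or above 50% were higher. Over all genes, 5.87% of those below 50% and 97.2% of those at or above it were called higher. Across the 75 members, which share their libraries, Spearman's rho of the log2 fold change with the GC content was 0.808, and it was 0.477 within the 52 and 0.418 within the 23. The rho with transcript length was -0.446. These correlations are descriptions across genes. The median GC content was 40.3% for centrosome genes, 41.0% for kinetochore genes, 41.6% for kinesins, 51.0% for cyclins and kinases and 56.6% for replication genes. In the coding part it was 59.9% in members that rose and 41.0% in members that fell, and in the 3′ untranslated part it was 54.8% in members that rose and 32.5% in members that fell. Beside all genes of like GC content, the members had these values. Below 40% the median log2 fold change was -0.64 for 26 members and -0.55 for all 1176 genes. From 40 to 45% it was -0.49 for 20 members and -0.39 for 1061 genes, and from 55 to 60% it was 0.20 for 14 members and 0.21 for 861 genes. CDK2AP1, with a GC content of 55.6%, was the 1 member at or above 50% that was lower. What part GC content has in the differences was not tested.

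**Figure D3:**
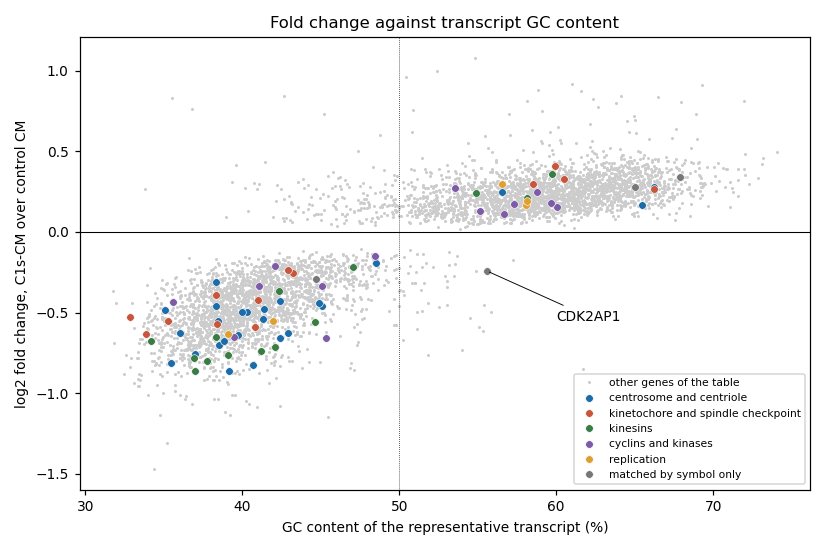
Log2 fold change (C1s-CM over control CM, without offsets) against the GC content of the representative transcript for the 75 members (coloured by role) and the other genes of the table (grey; genes beyond the y axis are not drawn). Members below 50% lie under 0 and those above it over 0, except CDK2AP1 at 55.6%; with total-count scaling AURKB lies at -0.013.

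A second fit removed from each library the part of the counts that followed GC content and length over all genes of the table. Such offsets are fitted on selected genes and would also remove a biological difference that follows GC content. With them 21 of 75 members passed the threshold (28%), against 25.8% of all 5112 genes tested, so the share of members was near that of the table. They were 6 higher (all genes 14.4%) and 15 lower (11.4%). With the longest transcript of each gene 20 passed (all genes 27.0%, 14.5% higher and 12.4% lower), and with the replicate number as a block 18 (23.0%, 13.1% higher and 9.86% lower). Without each library in turn the share of all genes that passed was 25.4, 21.0, 20.1, 21.4, 20.5 and 18.8%, and without control CM replicate 3 only 12 members passed. The sign of 29 of the 75 estimates differed from that without offsets, in 17 from below to above 0 and in 12 from above to below. By class 4 of 25 centrosome genes, 1 of 13 kinetochore genes, 5 of 14 kinesins, 7 of 14 cyclins and kinases, 2 of 5 replication genes and 2 of the 4 others passed. The medians with offsets were -0.10 for centrosome genes, 0.055 for kinetochore genes, -0.15 for kinesins, -0.030 for cyclins and kinases and -0.033 for replication genes.

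For 10 members the call with offsets held without each library in turn, with the longest transcript and with the block. The share of all genes that met this combined rule was not counted. Whether 10 members are more or fewer than in the table at large therefore cannot be told. Of the 10 members, 4 were kinesins, namely KIF2A, a microtubule depolymerase (-0.34 ± 0.06), KIF15, a spindle motor (-0.28 ± 0.08), KIF5B, a motor of cargo transport (-0.22 ± 0.05), and KIF1C (0.18 ± 0.03). The others were CDK4 (0.15 ± 0.03), AURKB (-0.13 ± 0.02), MCM5 (0.12 ± 0.02), TOP2A (-0.095 ± 0.02), CCNB1IP1 (-0.17 ± 0.03) and CDK2AP1. CDK2AP1 had the lowest log2 fold change of the 75 members with offsets, -0.44 ± 0.04 (adjusted p = 1.49e-08, edgeR). Among the 10, AURKB alone differed in sign between the fits, 0.11 without offsets and -0.13 with them. The other 11 members that passed missed the threshold in at least 1 of the 6 fits without a library. KIF18A (-0.32) passed in 5 of these fits, CDK2 in 4 and CCND3 (-0.088), which was higher without offsets, in 3. CEP152 (-0.34), CEP57, CEP78 (-0.22) and CDK8 (-0.42) passed in 2 of them each, and CEP55 (-0.12) in 1. CDK1, CCNA2 and BUB1 also passed in the direction opposite to that without offsets, at 0.087, 0.14 and 0.12, each in 2 of the 6. With the longest transcript CDK1 was at -0.038.

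**Figure D4:**
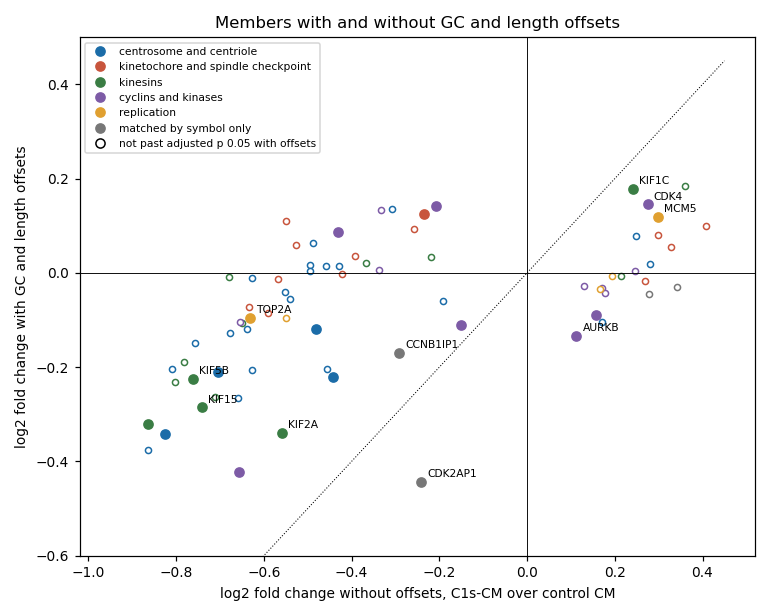
Log2 fold change (C1s-CM over control CM) of the 75 members without offsets (x axis) and with GC and length offsets (y axis); filled points passed adjusted p 0.05 with offsets, the dotted line marks equal values, and names mark the 10 members whose call held in every alternative of the offsets. CDK2AP1 lies below the line at -0.44, and AURKB is at 0.11 on the x axis and -0.13 on the y axis.

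Ratios of related genes within a library do not depend on how libraries are scaled. The 5 pairs were chosen after the values had been seen. The log2 ratio of CDK4 (53.6% GC) to CDK6 (39.5% GC) counts was 3.59, 3.49 and 3.60 in C1s-CM and 2.77, 2.63 and 2.52 in control CM, a difference of 0.93. The log2 ratio of CEP170B (66.2% GC) to CEP170 (39.7% GC), centrosomal proteins of 1 family, was 1.24, 1.33 and 1.25 in C1s-CM and 0.40, 0.31 and 0.36 in control CM, a difference of 0.92. The differences were 0.46 for KIF1C over KIF1B, 1.09 for KIF21B over KIF21A and 0.52 for CDK2AP2 over CDK2AP1. In all 5 pairs every C1s-CM ratio was above every control ratio. Each pair sets a member that rose over one that fell, and the CPM of the groups overlapped in neither. The separation was therefore fixed by the choice of pairs. The two-sided exact permutation p was 0.1, the smallest that 3 against 3 libraries can give, and the adjusted p over the 5 pairs was 0.1 too. Both follow from that choice and give no evidence of a difference. With offsets the differences in log2 fold change were 0.25 for the CDK4 pair, 0.14 for the CEP170B pair, 0.14 for the KIF1C pair, 0.45 for the KIF21B pair and 0.40 for the CDK2AP2 pair.

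**Figure D5:**
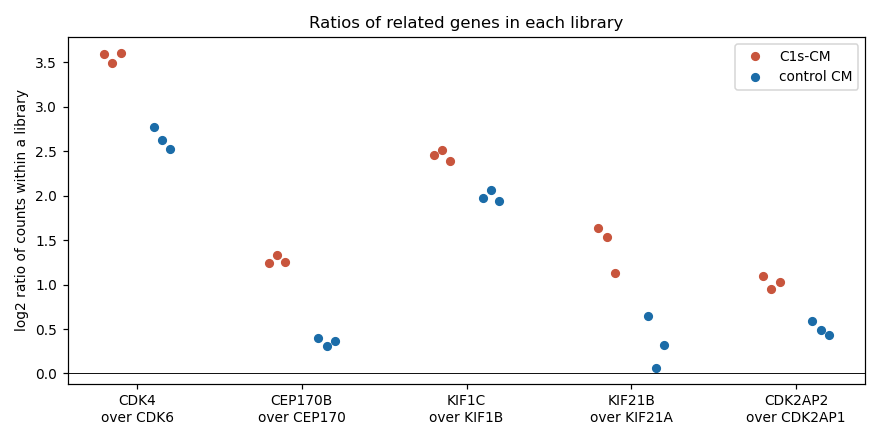
Log2 ratio of the counts of 2 related genes in each library, for 5 pairs, with C1s-CM left of control CM. The C1s-CM points of each of the 5 pairs lie above its control points, by 0.46 on average for KIF1C over KIF1B and 1.09 for KIF21B over KIF21A. Each pair sets a member that rose over one that fell, which fixes this separation.

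Other genes of cell division were taken from 11 lists of 180 genes, of which 99 had a row, 35 of them higher and 64 lower in C1s-CM, and their median log2 fold change was -0.31. All genes were 50.9% higher and 48.5% lower. With offsets 14 were higher and 13 lower, against 14.4% and 11.4% of all genes, with a median of -0.017. Cohesin and separase genes had 2 higher and 10 lower (ESPL1 0.13, ESCO1 -0.76), outer kinetochore and checkpoint genes 2 higher and 10 lower (PMF1 0.37, KNL1 -0.70), other centrosome genes 3 higher and 9 lower (POC1A 0.24, CCP110 -0.70) and condensin 2 higher and 4 lower (NCAPH2 0.34, SMC4 -0.71). Chromosomal passenger, spindle and cytokinesis genes had 3 higher and 6 lower (NUMA1 0.13, HMMR -0.79), origin licensing and firing genes 3 higher and 7 lower (RECQL4 0.26, TOPBP1 -0.61) and replication fork genes 5 higher and 9 lower (POLE4 0.38, RFC1 -0.45). The anaphase-promoting complex had 5 higher and 2 lower (ANAPC2 0.38, ANAPC4 -0.45), and CDK inhibitors with genes that control CDK1 6 higher and 2 lower (CDKN1C 0.27, CDKN2B -0.37). The RB and E2F list had 4 higher and 4 lower, with MYBL2, a transcription factor of G2 and mitosis genes, at 0.32 and the tumour suppressor RB1 at -0.63. The proliferation marker MKI67 had 5051, 4898 and 4797 counts in C1s-CM and 5522, 5867 and 6580 in control CM, a log2 fold change of -0.27 ± 0.03, and of -0.079 with offsets (adjusted p = 0.0483, edgeR). Of the list genes named here, MYBL2 (0.094), POLE4 (0.26), SMC4 (-0.13), HMMR (-0.25) and MKI67 passed the threshold with offsets. The median GC content of the lists of more than 1 gene ran from 39.5% for outer kinetochore and checkpoint genes to 58.7% for CDK inhibitors with CDK1 control.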

How the data were processed

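RNA selected with oligo(dT) beads from HMC3 cells was sequenced in 3 C1s-CM and 3 control CM libraries, per the labels' protocols. FastQC 0.11.9, Trim Galore 0.6.7, HISAT2 2.2.1, DESeq2 1.40.2 and the build GRCh38 are named in the submitters' processing notes; for the read counter, the annotation and strand handling nothing is given in the sources used here. The authors deposited raw counts for genes past their threshold. Their deposited log2 fold changes and deposited p-values were read for sign and range only.

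Counts were tested with edgeR 4.0.16 (R 4.3.3, filterByExpr, TMM, two-sided quasi-likelihood test between groups, Benjamini-Hochberg over all 5116 genes tested, threshold 0.05). The SE is the size of the log2 fold change over the square root of F. GC content and length came from 1 representative transcript per gene in GENCODE 29 (5113 of 5117 genes, all 75 members). Offsets were loess curves with a span of 0.3. Alternatives were DESeq2 1.42.0, total-count scaling, no filter, a filter of 50 counts, left-out libraries and the replicate block; those that combine offsets with the longest transcript, the block or left-out libraries were chosen after seeing the data. The steps were tested on simulated counts in which most genes were unchanged and the GC trend, where set, was a straight line. In this table every gene had been selected for a difference, so those runs do not show how the offsets act here. Libraries of a group differed by more than counting error.

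Members and lists were chosen with earlier results of these data known. Named in each class were the 3 largest rises and falls, the 2 smallest p with offsets among those past the threshold, and the highest level per kilobase (38 members), and in each list the largest rise and fall. Other members given by value, such as KIF11, PLK1, KIF5B and KIF15, were chosen after their values were seen.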

Additional observations from a re-analysis of the deposited data

How the results depend on the processing

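All 75 members passed with DESeq2, both other filters, the replicate block and every left-out library, and 66 with total-count scaling. Deviations from the group mean correlated at -0.127, -0.0873 and -0.00317 between same-numbered libraries of the groups. Between libraries of unlike number they correlated at -0.061 to 0.137. With 3 libraries per group these values cannot settle whether the libraries were paired. With the replicate block 75 members passed. The cause of the changes below was not tested. Total-count scaling left 1 centrosome gene, 2 cyclins and kinases and 19 list genes higher, and gave class medians of -0.62 centrosome, -0.52 kinetochore, -0.79 kinesin, -0.14 cyclin and kinase, 0.041 replication, -0.11 symbol-only, with AURKB -0.013. DESeq2 moved the cyclin and kinase median to -0.034, and leaving out libraries gave kinesin medians of -0.68 to -0.64. With offsets 21 members and 1319 genes passed; higher and lower members were 0 and 4 centrosome, 1 and 0 kinetochore, 1 and 4 kinesin, 3 and 4 cyclin and kinase, 1 and 1 replication, 0 and 2 symbol-only, medians were -0.10 centrosome, 0.055 kinetochore, -0.15 kinesin, -0.030 cyclin and kinase, -0.033 replication, -0.11 symbol-only, and 14 and 13 list genes were higher and lower. With offsets from the longest transcript 20 members and 1378 genes passed; members were 0 and 4 centrosome, 1 and 0 kinetochore, 1 and 5 kinesin, 1 and 3 cyclin and kinase, 1 and 2 replication, 0 and 2 symbol-only, medians were -0.057 centrosome, -0.0027 kinetochore, -0.16 kinesin, -0.042 cyclin and kinase, -0.061 replication, -0.19 symbol-only, and list genes 13 and 18. With the replicate block and offsets 18 members and 1175 genes passed; members were 0 and 2 centrosome, 0 and 0 kinetochore, 1 and 4 kinesin, 3 and 4 cyclin and kinase, 1 and 1 replication, 0 and 2 symbol-only, medians were -0.11 centrosome, 0.055 kinetochore, -0.15 kinesin, -0.029 cyclin and kinase, -0.033 replication, -0.11 symbol-only, and list genes 13 and 9. Leaving out libraries with offsets gave 12 to 20 members, with 13 without C1s-CM replicate 3 and without control CM replicate 2, and 12 without control CM replicate 3.

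The sign of 29 of 75 members turned with offsets, of 27 with those from the longest transcript and of 29 with the replicate block and offsets. Among the 38 members named by the rule, those on the other side of 0 with offsets were CEP131 -0.10, BUB1 0.12, KIF22 -0.0059, CDK1 0.087, AURKB -0.13, CDK16 -0.043, MCM7 -0.033, MCM2 -0.0056, CDK2AP2 -0.045, AURKAIP1 -0.030. With offsets from the longest transcript they were CEP78 0.12, CEP131 -0.11, CEP170B -0.0046, BUB1 0.13, CENPX -0.0027, KIF22 -0.030, AURKB -0.14, CDK16 -0.045, CDK5 -0.021, MCM7 -0.061, MCM2 -0.024, CDK2AP2 -0.039, AURKAIP1 -0.011. With the replicate block and offsets they were CEP131 -0.11, BUB1 0.12, KIF22 -0.0060, CDK1 0.087, AURKB -0.13, CDK16 -0.043, MCM7 -0.033, MCM2 -0.0055, CDK2AP2 -0.046, AURKAIP1 -0.030. The lowest mean count of a member was 47.3, and CEP83, with few counts, had the widest standard error. The table holds selected genes only, so neither the scaling nor the offsets could be set on genes that did not differ.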
